A study of Mus musculus with 4 samples.

Results

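The genes described here are the chemokines and the chemokine receptors, chosen from the gene count table by name: every gene whose symbol starts with Ccl, Cxcl, Ccr or Cxcr followed by a digit, or with Cx3c, Xcl or Xcr. Of the 41342 named genes, 59 such genes are described, namely 39 chemokines, 18 receptors and 2 pseudogenes of Ccl19. RNA was measured in CD43-depleted splenocytes, that is, splenic B cells left after removal of cells that carry CD43. The mice were of strain 129 and 8 to 12 weeks old, and were described as males for the RNA sequencing and as of both sexes for spleen cultures in general. In ΔleftPAL mice the immunoglobulin heavy chain (IgH) locus lacked the left part of the 3' regulatory region (3'RR) palindrome, which is the enhancer hs3a, the intervening inverted repeats (IRIS) and the enhancer hs1,2. In ΔIRIS mice the same left part was replaced by hs1,2 and an inverted hs3a, so that the repeats of that side were missing and all enhancers were present. Both lines were made in E14 embryonic stem cells, and both carried a 3'RR deletion, so that no group of this report is unmodified. The wt libraries were not analysed here. For each genotype there was 1 library of resting cells, which were freshly isolated (0 days of culture), and 1 of cells activated for 2 days with 5 μg per ml of lipopolysaccharide (LPS), a bacterial cell wall product that B cells sense directly. No group was cultured without LPS, so that LPS and the 2 days of culture cannot be told apart. The words on LPS, after LPS and response stand for both below. The deleted stretches hold no gene of the count table, so the genotype labels were not checked by a targeted gene. Each library came from a pool, described as B cells of 4 animals, although the pooling is stated in more than 1 way.

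Chemokines are small secreted proteins that attract cells along a gradient, and their receptors are G protein-coupled receptors on the surface of the responding cell. In the spleen, Cxcr5 guides B cells into the follicle along Cxcl13, and Ccr7 guides cells towards the T cell zone along Ccl19 and Ccl21. Cxcr4 binds Cxcl12 and holds cells in bone marrow and in the germinal centre dark zone. Activated B cells themselves secrete chemokines that attract T cells, among them Ccl22, a ligand of Ccr4.

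The gene counts of the 4 libraries summed to 23615496, 27777790, 28707002 and 29776108 (ΔleftPAL resting, ΔleftPAL LPS, ΔIRIS resting and ΔIRIS LPS, the order kept below). Levels are given as reads, as CPM, which are the counts scaled to a common effective library size, or as CPM per kb of counted exon where genes are compared with each other. With 1 library per group no difference has a replicate check and no p-value was computed. A ratio compares 2 libraries, and its 95% interval (exact, Clopper-Pearson) covers counting error only. A count of 0 allows up to 3 reads, or 0.123, 0.111, 0.103 and 0.102 CPM, and a fold against it is a lower bound computed at those 3 reads per library. This bound leaves out the counting error of the other library. The 4 comparisons share libraries, so that their results are not independent of each other.

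The label of the cells was checked with marker genes. All 8 B cell markers had reads in every library, with summed levels of 4911, 2554, 4065 and 2604 CPM. On LPS, 4 of them were at least 2-fold lower in ΔleftPAL and 2 in ΔIRIS cells. Over all genes with a ratio 16.5% and 18.2% were, so that the ΔIRIS count was near the share. Cr2, the complement receptor, had 19499, 4834, 14966 and 2515 reads and Fcer2a, the low-affinity IgE receptor, 6305, 1935, 8159 and 1579. Of 10 macrophage and monocyte markers, all were present in both resting libraries, with sums of 833 and 1105 CPM, against 15.8 and 21.6 CPM after LPS. Of the latter sum, 15.4 CPM came from Itgam, an integrin subunit of myeloid cells, which had 321, 140, 304 and 450 reads. Csf1r, the receptor that macrophages need for growth, had 4127 and 6532 reads at rest and 8 and 5 after LPS, and the complement gene C1qa had 1989 and 3163 reads at rest and 0 in both LPS libraries. The 10 dendritic cell markers summed to 77.7 and 132 CPM at rest and to 63.0 and 41.5 CPM after LPS. Most of the latter sums came from Flt3, a growth factor receptor with 435, 1220, 760 and 1055 reads, whereas the integrin subunit Itgax had 760, 20, 1663 and 16 reads. T cell, NK cell, neutrophil and platelet markers each summed to at most 32.7 CPM at rest and to at most 2.30 CPM after LPS. The resting pools thus held marker RNA of other splenic cells, of which the macrophage, T cell, NK cell, neutrophil and platelet sums were low in the cultures, as were the dendritic cell markers apart from Flt3 and, in ΔleftPAL cells, Fscn1 and Cacnb3. In such bulk samples, fewer cells of a type and less RNA per cell cannot be told apart.

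**Figure D1:**
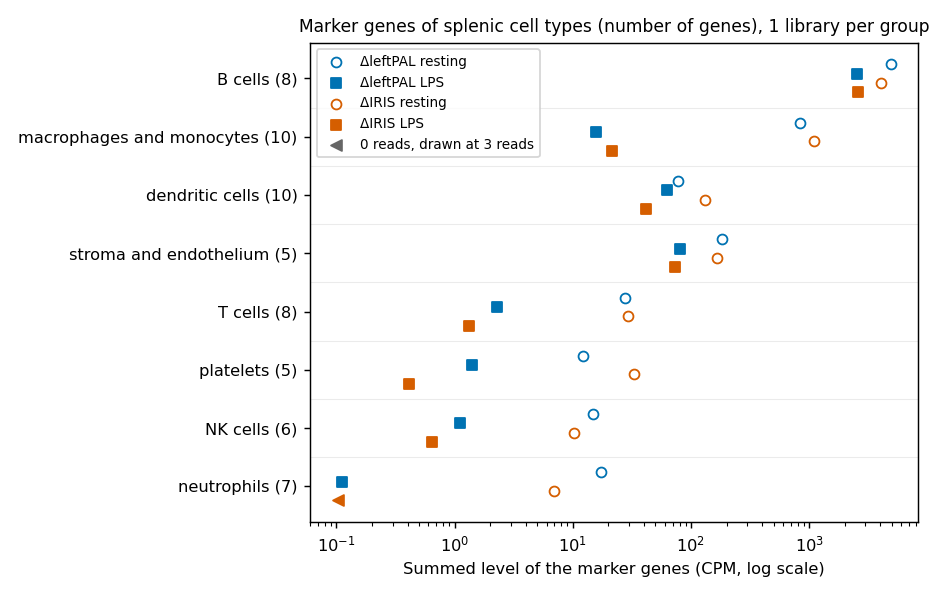
Summed CPM (log scale) of marker genes of 8 splenic cell types in the 4 libraries, with the number of genes in brackets. Open circles are resting and filled squares LPS libraries; a triangle marks a sum of 0 drawn at 3 reads. Macrophage markers lay at 833 and 1105 CPM at rest and at 15.8 and 21.6 CPM after LPS, whereas the sums of the B cell markers lay between 2554 and 4911 CPM.

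Chemokine and receptor transcripts were unevenly spread over the family. Of the 59 genes, 11 had no read in any library, 13 had between 1 and 3 reads at most in every library, and 17 had more but averaged under 50 reads. The remaining 18 genes, 8 chemokines and 10 receptors, averaged at least 50 reads over the libraries and entered the comparisons. Just under this minimum were Cxcr3, with a mean of 47 reads, and Cxcl10, with 46.8, and just above it Cx3cr1, with 51, Ccl25, with 52.8, and Ccr9, with 54. All members together had 643 CPM at rest and 385 CPM upon LPS in ΔleftPAL cells, against 1320.4 and 212 CPM in ΔIRIS cells. The sum was thus highest in resting ΔIRIS cells and lowest in LPS-activated ΔIRIS cells, but it rested largely on Ccr7 and Cxcr4. Of the 1320.4 CPM in resting ΔIRIS cells, Ccr7 held 541 and Cxcr4 475 CPM, against 149 and 171 CPM in resting ΔleftPAL cells. The order of the sums is therefore not a trait of the family as a whole. Receptors made up most of it, since 4 receptors of B cell homing (Cxcr4, Cxcr5, Ccr7 and Ccr6) held 83.0% of the member reads in resting ΔleftPAL cells (exact 95% interval 82.4 to 83.5), 87.5% in resting ΔIRIS cells (87.2 to 87.8) and 88.7% in LPS-activated ΔIRIS cells (87.9 to 89.5). The exception was LPS-activated ΔleftPAL cells, where the share was 53.0% (52.1 to 54.0) and chemokines took 45.0% (44.0 to 45.9), against 6.57%, 6.34% and 8.97% in the resting ΔleftPAL, resting ΔIRIS and LPS-activated ΔIRIS libraries. A single chemokine, Ccl22, accounted for 87.5% (86.5 to 88.4) of the chemokine reads of LPS-activated ΔleftPAL cells and for 46.6% (42.4 to 50.8) of those of LPS-activated ΔIRIS cells.

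**Figure D2:**
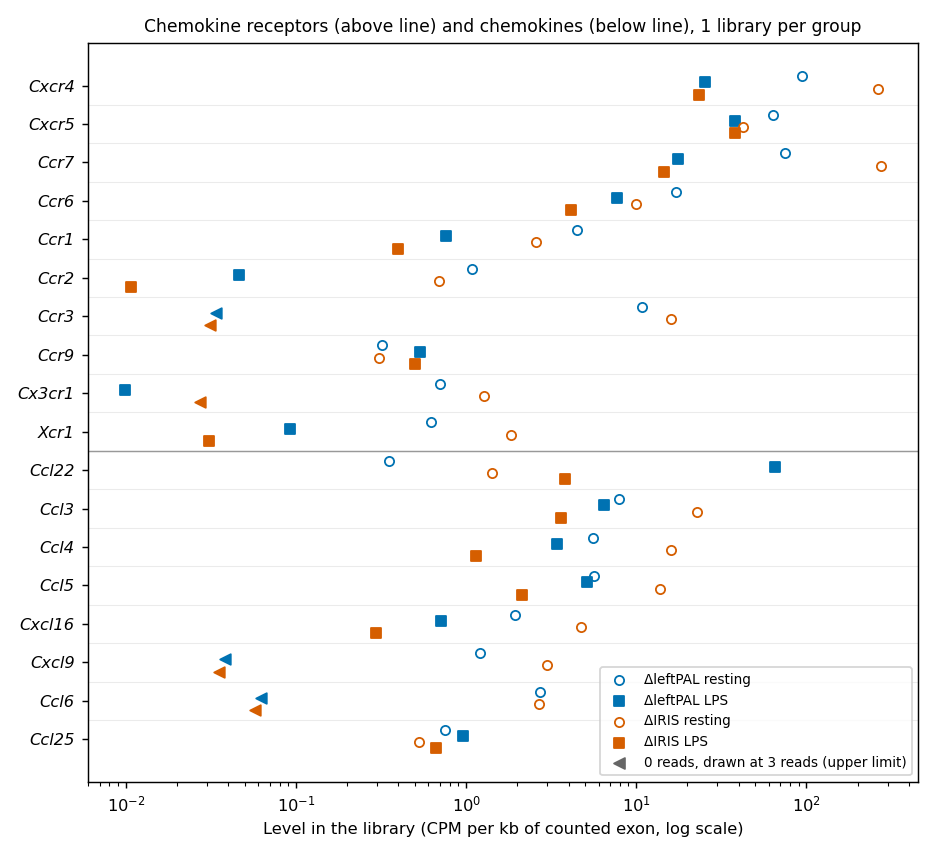
Level (CPM per kb of counted exon, log scale) of the 10 receptors and 8 chemokines with a mean of at least 50 reads, 1 point per library. Open circles are resting and filled squares LPS libraries, and triangles mark 0 reads drawn at 3 reads. Cxcr4 and Ccr7 reached 263 and 273 CPM per kb in resting ΔIRIS cells, above all other points, and Ccl22 stood at 65.2 in LPS-activated ΔleftPAL cells against at most 3.80 in the other libraries.

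Promoter sequences are shown for 5 members on which the results below turn or whose start region holds the searched letters. RefSeq windows on GRCm38.p6, the C57BL/6J assembly also called mm10, were given for 42 of the 59 genes and for 13 of the 18 compared, each from 250 bases before to 50 after an RNA start. The mice were of strain 129, whose bases may differ. The windows were searched on both strands for the κB consensus, the letters bound by NF-κB, and for TGACTCA, the letters bound by AP-1. A match is a description of the letters only. The κB consensus was present in 8.46% of all 32851 windows and in 11 of 49 member windows, and TGACTCA in 5.20% of all windows and in 8 of 49 member windows. Among the 13 compared genes with a window, Ccr1, Ccr3 and Ccr6 held the former and Ccr3 and Cxcl9 the latter. Matches are in capitals below, and each sequence is given 5′ to 3′ on the strand of its gene, without bases in a counted exon.
Ccl22, chr8:94745434-94745589, plus strand: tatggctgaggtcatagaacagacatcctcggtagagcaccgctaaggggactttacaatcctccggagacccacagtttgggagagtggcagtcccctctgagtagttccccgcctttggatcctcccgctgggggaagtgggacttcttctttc
Cxcr4, chr1:128592300-128592549, minus strand: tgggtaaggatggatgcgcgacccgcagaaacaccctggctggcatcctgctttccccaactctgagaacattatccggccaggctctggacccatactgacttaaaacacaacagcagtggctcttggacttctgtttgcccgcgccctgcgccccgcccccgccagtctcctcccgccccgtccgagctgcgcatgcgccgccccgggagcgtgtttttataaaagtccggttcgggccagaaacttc
Ccr3, chr9:124021721-124021970, plus strand: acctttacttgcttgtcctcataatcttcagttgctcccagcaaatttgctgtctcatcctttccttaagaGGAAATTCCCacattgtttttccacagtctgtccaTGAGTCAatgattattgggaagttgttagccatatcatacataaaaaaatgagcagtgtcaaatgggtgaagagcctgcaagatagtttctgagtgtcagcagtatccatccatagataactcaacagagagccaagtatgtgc
Ccr6, second RNA start, chr17:8242276-8242525, plus strand: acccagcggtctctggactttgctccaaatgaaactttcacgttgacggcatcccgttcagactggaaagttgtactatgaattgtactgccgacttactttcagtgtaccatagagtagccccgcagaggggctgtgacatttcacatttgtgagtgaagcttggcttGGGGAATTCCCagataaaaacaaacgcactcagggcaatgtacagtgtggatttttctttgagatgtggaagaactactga
Cxcl10, chr5:92348890-92349139, minus strand: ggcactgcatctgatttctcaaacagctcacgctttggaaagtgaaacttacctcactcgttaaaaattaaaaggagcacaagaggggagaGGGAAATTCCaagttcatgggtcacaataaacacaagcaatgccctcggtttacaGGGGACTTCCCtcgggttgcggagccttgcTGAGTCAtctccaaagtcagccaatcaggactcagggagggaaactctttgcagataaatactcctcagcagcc
The windows of Ccl22 and Cxcr4 held neither set of letters, which says only that these letters are not in this stretch. In Ccr3 the κB letters began 179 and the AP-1 letters 144 bases before the start. The κB letters began 81 bases before the second start of Ccr6. Cxcl10, an attractant of Cxcr3-bearing T cells, had κB letters beginning 159 and 104 and AP-1 letters beginning 74 bases before its start.

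The first comparison was that of resting cells of the genotypes. At rest, Ccr7 and Cxcr4 were the most abundant members per length in ΔIRIS cells and were well above their level in ΔleftPAL cells. Ccr7 (ENSMUSG00000037944, chr11:99144196-99155077, minus strand) had 3639 reads or 149 CPM in resting ΔleftPAL and 15720 reads or 541 CPM in resting ΔIRIS cells, a 3.63-fold difference (interval 3.50 to 3.76). Cxcr4 (ENSMUSG00000045382, chr1:128588199-128592293, minus strand) had 4171 reads or 171 CPM and 13811 reads or 475 CPM, a 2.78-fold difference (2.69 to 2.88). The remaining homing receptors did not share this direction. Cxcr5 (ENSMUSG00000047880, chr9:44511788-44556391, minus strand) had 4376 reads or 179 CPM in ΔleftPAL and 3466 reads or 119 CPM in ΔIRIS cells, and was 1.50-fold lower in the latter (1.44 to 1.57). Ccr6 (ENSMUSG00000040899, chr17:8236043-8257127, plus strand), the receptor for Ccl20 on follicular and memory B cells, had 844 and 586 reads and was 1.71-fold lower in ΔIRIS cells (1.54 to 1.91). Neither reached 2-fold.

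Of the 8 compared chemokines, Ccl3, Ccl4, Ccl5, Ccl22, Cxcl16 and Cxcl9 were also at least 2-fold higher in resting ΔIRIS cells, whereas Ccl6, a macrophage chemokine, had 119 and 139 reads and Ccl25 49 and 41. Ccl3 and Ccl4, inflammatory attractants of monocytes and T cells whose genes lie 13.2 kb apart on chromosome 11, had 149 and 90 reads in ΔleftPAL and 505 and 307 reads in ΔIRIS cells. Their differences were 2.85-fold (2.37 to 3.44) and 2.87-fold (2.26 to 3.67). Ccl5, a T cell attractant on the same chromosome, had 132 and 385 reads, a 2.45-fold difference (2.01 to 3.01). Ccl22 was low in both, with 20 and 96 reads, but 4.03-fold higher in ΔIRIS cells (2.47 to 6.90). Cxcl16, a membrane-anchored ligand of Cxcr6 made by antigen-presenting cells, had 143 and 413 reads (2.43-fold, 2.00 to 2.96), and Cxcl9, an interferon-induced Cxcr3 ligand, had 86 and 252 reads (2.46-fold, 1.92 to 3.18). Xcr1, the receptor that marks cross-presenting dendritic cells, had 68 and 236 reads (2.92-fold, 2.22 to 3.88).

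In total, 9 of the 18 genes were at least 2-fold higher in resting ΔIRIS cells and 0 were at least 2-fold lower. Of these, Cxcl9 and Xcr1 averaged under 50 reads over the libraries other than resting ΔIRIS, so that they were compared because of the library in which they were high, and they add no support to the count. Among all 11283 genes with a ratio, 2.42% were at least 2-fold higher and 1.37% at least 2-fold lower. The median log2 ratio was 1.07 over the 18 genes and 0.00028 over all genes. Ccl6 and Cx3cr1 also averaged under 50 reads over the libraries other than resting ΔIRIS, and nothing is read from these medians. The other 9 genes stayed within 2-fold, from Ccr1, which was 1.75-fold lower in ΔIRIS cells (311 and 211 reads), to Cx3cr1, which was 1.82-fold higher (64 and 139 reads). With kallisto estimated counts the log2 ratio of Cx3cr1 was 0.26 in place of 0.87. With the authors' kallisto estimated counts in place of the gene counts, 8 members were at least 2-fold higher, Xcr1 being lost. With 5 CPM added to every value, which damps low genes, 3 members were.

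Other transcripts moved between the same libraries. Of the 10 dendritic cell markers, 7 had enough reads, and 2 of them were at least 2-fold higher in resting ΔIRIS cells: Fscn1, an actin-bundling protein of mature dendritic cells, with 121 and 402 reads, and Clec9a, of the Xcr1-bearing subset, with 82 and 211. No tested one was 2-fold lower, and Il12b, outside the test, had 15 and 93 reads. Both tested platelet markers were higher, Ppbp with 103 and 407 reads and Itga2b with 134 and 369. Of the 2 tested T cell markers Cd8a was higher, with 84 and 202 reads. Several T cell, NK cell and neutrophil markers under the minimum went the other way, among them Cd3g with 50 and 11 reads and Cd3d with 47 and 18, the NK cell granzyme Gzma with 48 and 13, and the neutrophil genes S100a8 with 86 and 20 and S100a9 with 128 and 24. The 10 macrophage markers were all within 2-fold, with a median log2 ratio of 0.41. Immediate early genes, a list added after the counts were seen, summed to 1810 and 2950 CPM, and 3 of 11 were at least 2-fold higher in ΔIRIS cells, namely Nr4a1, Atf3 and Egr1. The 8 B cell markers stayed within 2-fold, with a median of -0.095. The part of these cells and of early gene induction in the chemokine differences was not tested, and a difference between the pools and one between the genotypes cannot be told apart.

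**Figure D3:**
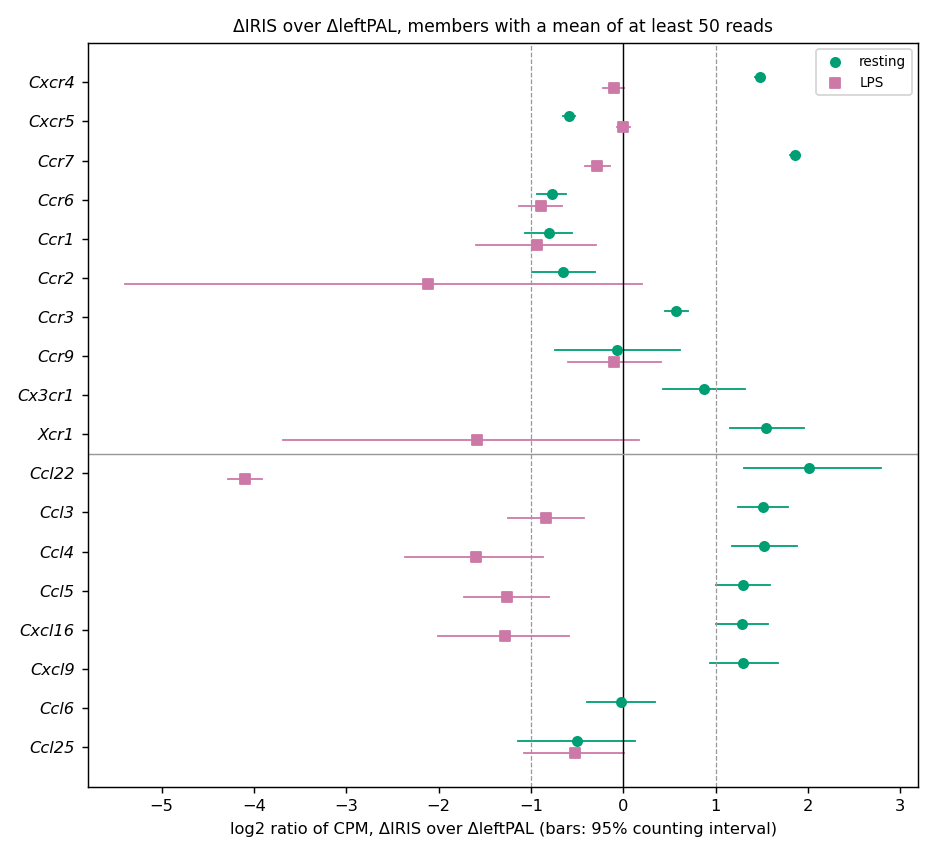
Log2 ratio of CPM, ΔIRIS over ΔleftPAL, for resting (circles) and LPS-activated (squares) cells, with bars for the 95% counting interval and dashed lines at 2-fold. At rest 9 genes lay beyond 2-fold on the ΔIRIS side, with Ccl22 at 2.01, and after LPS 6 of 14 lay beyond it on the ΔleftPAL side, with Ccl22 at -4.10; Ccr3, Cx3cr1, Cxcl9 and Ccl6 had too few reads after LPS for a ratio.

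After 2 days of LPS the differences in the homing receptors Cxcr4, Ccr7 and Cxcr5 were nearly gone, but not that in Ccr6. Cxcr4 had 1233 reads or 45.8 CPM in ΔleftPAL and 1247 reads or 42.5 CPM in ΔIRIS cells, a log2 ratio of -0.11 (interval -0.22 to 0.01). Ccr7 had 943 reads or 35.0 CPM and 844 reads or 28.8 CPM, 1.22-fold lower in ΔIRIS cells (1.11 to 1.34). Cxcr5 had 108 CPM in both libraries, from 2909 and 3164 reads, and the interval of their log2 ratio ran from -0.07 to 0.07. Ccr6 remained lower in ΔIRIS cells, at 247 reads against 423, by 1.86-fold (1.59 to 2.19), close to its difference at rest.

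The largest difference within the family after LPS was that of Ccl22 (ENSMUSG00000031779, chr8:94745590-94751699, plus strand), the chemokine that draws Ccr4-bearing helper and regulatory T cells. It had 4085 reads or 152 CPM in LPS-activated ΔleftPAL cells and 259 reads or 8.84 CPM in LPS-activated ΔIRIS cells, so that it was 17.2-fold lower in the latter (interval 15.1 to 19.5). Per length, Ccl22 stood at 65.2 CPM per kb in ΔleftPAL cells, above Cxcr5 at 38.2 and all other members of that library, and at 3.80 in ΔIRIS cells, below Ccr6 at 4.16. The neighbouring genes were low. Cx3cl1, fractalkine, which starts 20.3 kb downstream, had 3, 23, 5 and 2 reads, and Ccl17, a second Ccr4 ligand 28.0 kb beyond it, had 0, 1, 1 and 1. Cx3cl1 thus had most reads in LPS-activated ΔleftPAL cells, as had Ccl22, but it averaged too few for a comparison. Nearly all estimated Ccl22 transcripts were of 1 form of 2216 nt, which took at least 99.9% of the kallisto counts in every library. The log2 ratio between the LPS libraries was -4.02 with kallisto estimated counts and -4.15 in TPM, near the -4.10 of the gene counts.

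Of the 14 members with a ratio between the LPS libraries, 6 were at least 2-fold lower in ΔIRIS cells and 0 were at least 2-fold higher. Over all 11132 genes with a ratio, 2.26% were at least 2-fold lower and 0.871% at least 2-fold higher. The median log2 ratio was -0.92 over the members and 0.029 over all genes. Ccl25 and Ccr9 averaged under 50 reads over the libraries other than LPS-activated ΔleftPAL, and nothing is read from these medians. Besides Ccl22, the lower genes were Ccl4 (61 and 22 reads, 3.02-fold, interval 1.83 to 5.16), Cxcl16 (58 and 26 reads, 2.43-fold, 1.50 to 4.02) and Ccl5 (132 and 60 reads, 2.39-fold, 1.75 to 3.30). Xcr1 (11 and 4 reads) and Ccr2 (8 and 2 reads) also passed 2-fold, but their intervals held equality (0.887- to 12.9-fold and 0.868- to 42.1-fold lower), so that no difference was detectable at this depth. Ccl3, with 133 and 81 reads, was 1.79-fold lower (1.35 to 2.38). Kallisto estimated counts left 3 members at least 2-fold lower, and Ccr2, Cxcl16 and Xcr1 fell within 2-fold.

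As at rest, some dendritic cell markers differed in the direction of the chemokines. Between the LPS libraries 3 of the 7 tested markers were at least 2-fold lower in ΔIRIS cells, namely Cacnb3 (95 and 25 reads), Fscn1 (292 and 93) and Zbtb46 (59 and 23). Clec9a and Clec10a were at 0 in both LPS libraries, Cd209a and Siglech also in that of ΔIRIS cells. Flt3, with 1220 and 1055 reads, and Itgax, with 20 and 16, stayed within 2-fold. All B cell markers but Cr2, which had a log2 ratio of -1.06, stayed within 2-fold. Of the macrophage markers, Lyz2 (35 and 14 reads) and Vcam1 (4 and 1) were at least 2-fold lower and Itgam (140 and 450) was higher. The platelet marker Itga2b (33 and 10) and the immediate early gene Fos (358 and 180) were also lower. The part of dendritic and other cells in the Ccl22 difference was not tested. Of 15 tested genes of the LPS sensing and NF-κB list, 0 with a ratio were 2-fold apart between the LPS libraries. Their log2 ratios ran from -0.43 to 0.41, and the counting intervals of several genes excluded equality. Over all genes 2.26% were lower and 0.871% higher, so the count is near the share and nothing is read from it about the list.

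The second comparison was that of LPS-activated with resting cells of the same genotype. These libraries also differed by the 2 days of culture, which cannot be told apart from LPS. In both genotypes the homing receptors Cxcr4 and Ccr7 were lower after LPS. In ΔleftPAL cells Cxcr4 was 3.73-fold lower (interval 3.50 to 3.98) and Ccr7 4.26-fold lower (3.96 to 4.58). In ΔIRIS cells, which started from higher levels, Cxcr4 was 11.2-fold lower (10.5 to 11.8) and Ccr7 18.8-fold lower (17.5 to 20.1). The immediate early genes were lower too, 9 of 11 by at least 2-fold in ΔleftPAL and 11 of 11 in ΔIRIS cells, their sums going from 1810 to 246 CPM and from 2950 to 185 CPM, and their part in the receptor differences was not tested. Over all genes with a ratio 16.5% and 18.2% were at least 2-fold lower. Ccr6 was 2.20-fold lower in ΔleftPAL (1.96 to 2.48) and 2.39-fold lower in ΔIRIS cells (2.06 to 2.79), the difference of these responses being -0.12 on the log2 scale (-0.39 to 0.15). Cxcr5 changed least among the 4 receptors, by 1.66-fold downward in ΔleftPAL (1.58 to 1.74) and 1.10-fold in ΔIRIS cells (1.05 to 1.16). The latter direction turned with kallisto estimated counts, from a log2 ratio of -0.14 to 0.028. With these changes the order of levels per length turned over. Ccr7 and Cxcr4 led in resting ΔIRIS cells, at 273 and 263 CPM per kb against 42.2 for Cxcr5, whereas Cxcr5 led the receptors in both LPS libraries, at 38.2 CPM per kb in each.

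**Figure D4:**
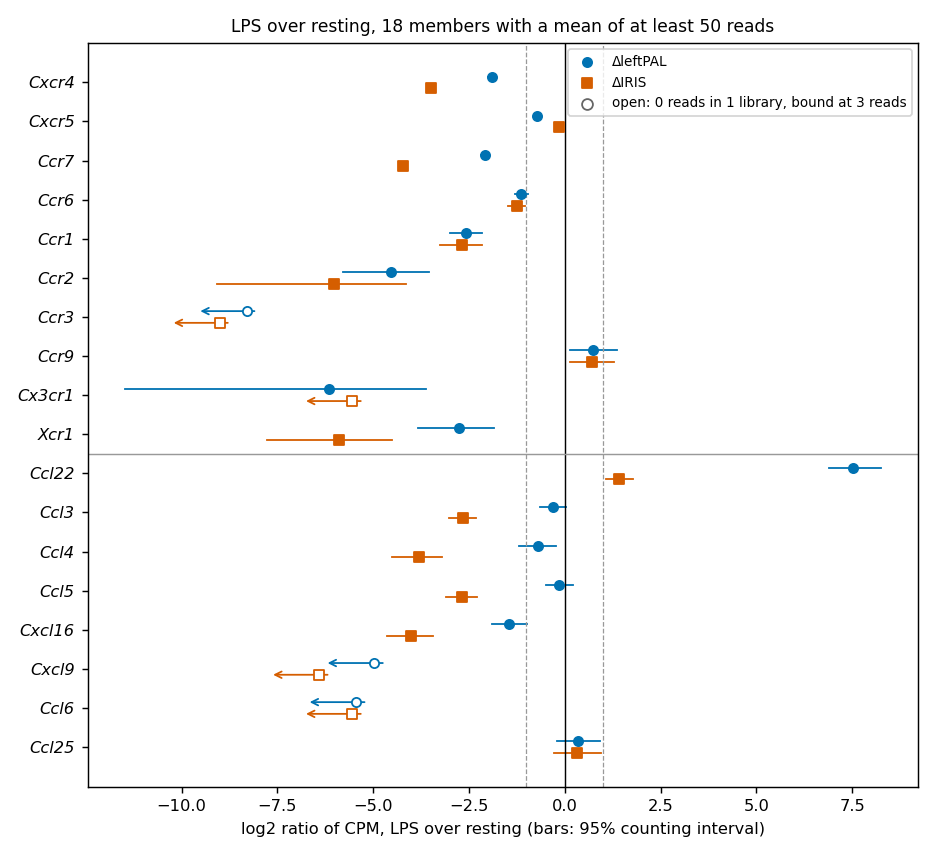
Log2 ratio of CPM, LPS over resting, in ΔleftPAL (circles) and ΔIRIS (squares) cells, with bars for the 95% counting interval, arrows for lower bounds on the fall (open symbols, 0 reads after LPS) and dashed lines at 2-fold. Ccl22 rose by 7.53 in ΔleftPAL and 1.42 in ΔIRIS cells.

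Among chemokines, Ccl22 was the only member at least 2-fold higher after LPS in both genotypes. It went from 20 to 4085 reads in ΔleftPAL cells, 185-fold (interval 120 to 303), and from 96 to 259 reads in ΔIRIS cells, 2.68-fold (2.11 to 3.42). With 5 CPM added to every value the rise in ΔIRIS cells was under 2-fold. On the log2 scale the response was -6.11 apart, ΔIRIS minus ΔleftPAL (-6.83 to -5.39), which reflects both the higher resting and the lower LPS level in ΔIRIS cells. Of the 7 tested dendritic cell markers, 2 were at least 2-fold higher on LPS in ΔleftPAL cells, Flt3 from 435 to 1220 reads and Fscn1 from 121 to 292, and 4 were lower. In ΔIRIS cells 0 were higher and 6 lower, with Fscn1 going from 402 to 93 reads, and the part of these markers in the Ccl22 response was not tested. Over all genes 21.3% were higher and 16.5% lower in ΔleftPAL cells, and 22.8% and 18.2% in ΔIRIS cells. The count of higher markers in ΔleftPAL cells was thus near the share. Ccl3, Ccl4 and Ccl5 stayed within 2-fold in ΔleftPAL cells, with log2 ratios of -0.31, -0.70 and -0.14. In ΔIRIS cells they were 6.29-fold (505 to 81 reads), 14.1-fold (307 to 22) and 6.47-fold lower (385 to 60). Cxcl16 was 2.72-fold lower in ΔleftPAL (1.99 to 3.76) and 16.0-fold lower in ΔIRIS cells (10.8 to 24.8). Ccl25, the thymic and gut ligand of Ccr9, and Ccr9 itself moved little, with 49, 69, 41 and 52 reads and 37, 68, 42 and 69 reads, and neither passed 2-fold in any comparison of the gene counts.

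The compared receptors Ccr3, Cx3cr1, Ccr2, Xcr1 and Ccr1, known from myeloid and dendritic cells, were lower after LPS in both genotypes. Ccr3, known as the eotaxin receptor of eosinophils, had 860 reads or 35.2 CPM in resting ΔleftPAL and 1522 reads or 52.4 CPM in resting ΔIRIS cells, and 0 reads in both LPS libraries. Computed at 3 reads, it was therefore at least 316-fold and at least 512-fold lower after LPS. The lower limits of the counting intervals were 257-fold and 415-fold. Cx3cr1, the fractalkine receptor of monocytes, had 64, 1, 139 and 0 reads, which is 70.6-fold lower in ΔleftPAL (interval 12.2 to 2831) and at least 46.7-fold lower in ΔIRIS cells. Ccr2, of inflammatory monocytes, had 169, 8, 128 and 2 reads (23.3-fold lower, 11.6 to 54.9, and 64.5-fold lower, 17.5 to 539). Xcr1 had 68, 11, 236 and 4 reads, and was 6.82-fold (3.58 to 14.3) and 59.5-fold (22.9 to 220) lower. Ccr1, another receptor of myeloid cells, was lower by 5.91-fold and 6.45-fold, with 311, 58, 211 and 33 reads. Ccl6 and Cxcl9 went the same way: Ccl6 with 119, 0, 139 and 0 reads and Cxcl9 with 86, 0, 252 and 0, or at least 43.8-fold and 46.7-fold lower for Ccl6 and at least 31.6-fold and 84.7-fold for Cxcl9. These values depended on the table. With kallisto estimated counts the log2 ratios in ΔleftPAL and ΔIRIS cells were -2.95 and -3.23 for Ccr2, against -4.54 and -6.01 with gene counts. They were -2.41 and -3.14 for Cx3cr1, -1.06 and -2.46 for Xcr1 and -3.31 and -4.67 for Cxcl9, so that the bounds given for Cx3cr1 and Cxcl9 hold for the gene counts only. The directions were the same in both tables. The macrophage markers moved with these members, since 10 of 10 were at least 2-fold lower after LPS in ΔleftPAL and 9 of 10 in ΔIRIS cells, the exception being Itgam, and their part in the result was not tested. Over all genes with a ratio 16.5% and 18.2% were at least 2-fold lower. Between the resting libraries Ccr3 had a log2 ratio of 0.57, and the macrophage markers a median of 0.41.

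As a description of the compared members, in ΔleftPAL cells 1 of the 18 was at least 2-fold higher after LPS and 11 at least 2-fold lower, whereas among all 11286 genes 21.3% were higher and 16.5% lower. In ΔIRIS cells 1 member was higher and 14 were lower, among all 11285 genes with a ratio 22.8% and 18.2%. The 3 additional members that were lower in ΔIRIS cells were Ccl3, Ccl4 and Ccl5. The median log2 ratio of the members was -1.67 in ΔleftPAL and -3.65 in ΔIRIS cells, against 0.12 and 0.13 over all genes. Of the 18 members, 9 averaged under 50 reads over the LPS libraries and so were compared because of their resting reads: Ccl4, Ccl6, Ccr1, Ccr2, Ccr3, Cx3cr1, Cxcl16, Cxcl9 and Xcr1. They had to be lower on average after LPS, and nothing is read from these counts and medians against those of all genes. Within 2-fold in both genotypes were Ccl25, Ccr9 and Cxcr5. The interval of the difference between the responses lay below 0 (a lower response in ΔIRIS cells) for 8 members, Ccl22, Ccl3, Ccl4, Ccl5, Ccr7, Cxcl16, Cxcr4 and Xcr1. It lay above 0 for Cxcr5 only, at 0.59 (0.49 to 0.68), and held 0 for 9. Of these members, Xcr1 was compared because of its resting ΔIRIS reads and adds no support. The share over all genes was not computed, so nothing is read from these counts about the members as a set.

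Members with a mean under 50 reads were not compared and are given by their reads. Ccr10, the receptor of plasma cells that home to mucosa, had 3, 29, 0 and 14 reads, more after LPS in both genotypes. Cxcr3, of activated T and some B cells, had 93, 31, 51 and 13, and Cxcr6, the receptor for Cxcl16, had 18, 1, 8 and 1. Cxcr2, of neutrophils, had 12, 0, 24 and 3 reads. The Cxcr3 ligand Cxcl10 had 50, 56, 56 and 25 reads, lowest in LPS-activated ΔIRIS cells. The neutrophil attractants Cxcl2 and Cxcl1 had 39, 5, 60 and 1 and 16, 8, 6 and 3 reads, and the macrophage chemokine Ccl9 had 48, 0, 43 and 0. Ccl27a had 45, 15, 41 and 16 reads, counted within chr4:41769467-41774247, and its name covered 3 gene identifiers among the kallisto transcripts. Cxcl13, which makes the follicle attractive to Cxcr5-bearing B cells and is made by stromal cells, had 8, 0, 17 and 0 reads, and Cxcl12, the ligand of Cxcr4, had 6, 2, 22 and 0. Ccl24 had 8, 0, 23 and 0, Xcl1 9, 6, 9 and 3, Ccr1l1 6, 1, 10 and 2, Ccl1 0, 6, 0 and 1, and Ccl2 7, 0, 2 and 0. The Ccr7 ligands Ccl19 and Ccl21a had at most 2 reads and Ccr4, the receptor for Ccl22, at most 2, as did Ccl12, Ccl17, Ccl8, Ccr8, Cxcl11, Cxcl14, Cxcl5 and the pseudogene Ccl19-ps3, while Ccl28 and Cxcl3 had at most 3. No read was counted for Ccl7, Ccl11, Ccl20, Ccl21b, Ccl21c, Ccl26, Ccl27b, Cxcl15, Cxcl17, Cxcr1 and Ccl19-ps1, so that the ligands of Ccr6 and of Ccr7 were at or near 0 in these cells.

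Genes on the path from receptor to movement were taken from fixed lists. Over all genes, as given above, 21.3% were at least 2-fold higher and 16.5% lower on LPS in ΔleftPAL cells. In ΔIRIS cells the shares were 22.8% and 18.2%. Between the genotypes, 2.42% were higher and 1.37% lower in resting ΔIRIS cells, and 0.871% and 2.26% in LPS-activated ΔIRIS cells. The counts below stand beside these shares. Chemokine receptors signal through some of the listed G proteins and effectors. Of the 23 tested, 0 were 2-fold higher after LPS in either genotype, and 4 were 2-fold lower in ΔleftPAL and 6 in ΔIRIS cells. Between the genotypes 0 were 2-fold apart in resting or in LPS-activated cells. The ΔleftPAL count of lower genes and the counts between the genotypes were near the shares over all genes. No tested gene of this list reached 4-fold. Of 14 tested receptor regulators, 8 were at least 2-fold lower after LPS in each genotype, and 1 was higher in ΔleftPAL and 0 in ΔIRIS cells. Rgs1, which shortens the signal of Cxcr4 and Cxcr5, had 5600 and 13443 reads at rest and 131 and 105 after LPS. Its relative Rgs2 had 4780 and 8385 reads at rest and 260 and 262 after LPS. Adrbk2, a kinase that desensitises receptors, had 1043 and 1543 reads at rest and 102 and 45 after LPS, and Arrb1, a β-arrestin, 1319 and 2172 at rest and 249 and 259 after LPS. Rgs3 had 583 and 531 reads at rest and 168 and 88 after LPS, and Rgs13, known from germinal centre B cells, 205 and 114 at rest and 22 and 48 after LPS. Rgs1 was thus, like Cxcr4 and Ccr7, higher in resting ΔIRIS than in resting ΔleftPAL cells, with a log2 ratio of 1.01, and Rgs10 was the other regulator 2-fold higher there, at 1.10, while Rgs13 was lower, at -1.10. Between the LPS libraries 1 regulator was 2-fold higher in ΔIRIS cells and 2 were lower.

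Of 8 tested atypical chemokine receptors and related receptors of B cell positioning, 8 were at least 2-fold lower after LPS in ΔleftPAL and 5 in ΔIRIS cells, and 0 were 2-fold higher. In ΔIRIS cells S1pr2 and the chemokine scavenger Ackr2 had more reads after LPS, 40 and 69 and 197 and 256, with log2 ratios of 0.77 (0.19 to 1.37) and 0.37 (0.09 to 0.64). S1pr1, which lets lymphocytes leave tissues towards blood, had 6305 and 8485 reads at rest and 579 and 653 after LPS. The related S1pr3 had 954 and 550 reads at rest and 256 and 236 after LPS, and Ccrl2, which binds chemerin, 169 and 266 at rest and 69 and 45 after LPS. Gpr183, which draws B cells to the outer follicle, had 2470 and 2664 reads at rest and 679 and 585 after LPS. Between the resting libraries 4 were at least 2-fold lower in ΔIRIS cells and 0 higher, against 1.37% and 2.42% over all genes. This is the opposite side from Ccr7 and Cxcr4. S1pr2, which holds germinal centre B cells in place, had 181 and 40 reads, and Ackr3, the second Cxcl12 receptor, 365 and 187. After LPS, Ackr3 was the 1 receptor of the list that was 2-fold lower in ΔIRIS cells, with 110 and 30 reads.

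Of 15 tested genes of LPS sensing and NF-κB, 1 rose at least 2-fold after LPS in each genotype. This was Batf, an AP-1 family factor, with 214 and 240 reads at rest and 2900 and 3443 after LPS. By contrast, 3 were 2-fold lower in ΔleftPAL cells, namely Cd14, Cd180 and Rel, and 4 in ΔIRIS cells, where Relb was lower too. These counts were near the shares over all genes, 16.5% and 18.2%. Cd14, an LPS co-receptor of myeloid cells, had 144 and 190 reads at rest and 3 and 1 after LPS. The NF-κB subunit gene Rel and Irf4 were the 2 genes 2-fold higher in resting ΔIRIS cells. Rel had 1942 and 4879 reads at rest and 846 and 683 after LPS. Irf4 had 6959 and 17554 reads at rest and 12348 and 11495 after LPS.

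The gene counts and the kallisto estimated counts were close for most members. Over 10732 genes with a mean of at least 50 reads the median ratio of kallisto to gene counts was 1.01, and 7.02% had a ratio of at least 1.3. Among the 18 compared members 4 did, and with a minimum mean of 10 reads 6 of 24 members did, namely Ccr9 (2.73), Xcr1 (2.35), Ccl9 (2.14), Cx3cr1 (1.88), Ccr2 (1.48) and Ccl27a (1.32). For Ccr9 the LPS response of ΔleftPAL cells was 0.74 with gene counts and -0.45 with kallisto estimated counts, so that its direction was not settled. Of the members averaging under 10 gene counts, 7 averaged at least 10 kallisto estimated counts, namely Ccl24, Ccl28, Ccr4, Cxcl11, Cxcl15, Cxcr2 and Cxcr6. Cxcr2 had 291, 159, 295 and 137 estimated counts against 12, 0, 24 and 3 reads, and Ccr4 58.8, 37.7, 57.2 and 29.1 against 2, 0, 0 and 1, so that low levels of these genes hold for the gene counts alone. Cxcr4, Cxcr5, Ccr7, Ccr6, Ccl22, Ccl3 and Ccl4 had ratios between 0.966 and 1.03. The main Cxcr4 transcript, of 1805 nt, took 82.8%, 79.3%, 86.1% and 84.8% of the Cxcr4 estimated counts, and the main Cxcr5 transcript, of 2614 nt, took 76.1%, 82.6%, 78.7% and 79.7% of those of Cxcr5, so that neither main form was replaced on LPS.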

How the data were processed

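Ribosomal RNA-depleted total RNA of 4 libraries was sequenced as paired reads of 150 nt. The authors mapped them with STAR 2.4.0a to mm10 with Ensembl 77 genes and deposited counts per gene name from featureCounts (Subread 1.4.6-p1), not normalized, on the strand set by option 1. The authors also deposited kallisto 0.42.3 estimated counts and TPM for 88198 transcripts, which were summed per gene here. Versions are from the submitters' processing notes and the methods.

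The 41343 gene rows held 1 row without a gene name, left out of tests and library sizes, with 0.026%, 0.0092%, 0.016% and 0.0088% of the counts. CPM used TMM effective sizes from edgeR 4.0.16 (R 4.3.3). Ratios were computed where a gene averaged 50 counts or more over the libraries, with 0 set to 3 counts and none given where both libraries were at or under 3. Called means at least 2-fold apart. Intervals came from scipy 1.17.1, and the interval of a difference of responses from the sum of the inverse counts. The calling step was tested on simulated data. DESeq2 1.42.0 size factors, total counts, TMM without immunoglobulin genes, other filters, an added 0.5 or 5 CPM and the kallisto tables were the alternatives.

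Of the genes the name rule takes, 1 is not reported here. All compared members, and others with a mean of at least 5 counts, were named. Of the pathway lists, genes at least 4-fold apart were named. Rgs10, Irf4, Cd180 and Relb, chosen after their values were seen, and Ackr2 were named although under 4-fold. The members and lists were chosen with earlier results of these data known. Multi-mapping fragments were counted at their primary alignment, which may shift reads between copies such as the Ccl21 and Ccl27 genes.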

Additional observations from a re-analysis of the deposited data

How the results depend on the processing

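Scaling by total counts, DESeq2 size factors or TMM without immunoglobulin genes left the 8 counts of members at least 2-fold apart as they were. Scaling changed 1 sign, that of Cxcr5 between the LPS libraries, which is near 0. Kallisto estimated counts changed 5 of 68 signs, all of Ccl6, Ccr9 or Cxcr5, and gave smaller falls of Ccr2, Cx3cr1, Xcr1 and Cxcl9 on LPS. With kallisto estimated counts, 3 members were lower in ΔIRIS cells between the LPS libraries. With a minimum mean of 10 counts, which kept 24 members, 2 were higher on LPS in each genotype, and 15 were lower in ΔleftPAL and 19 in ΔIRIS cells. Against ΔleftPAL cells, 1 was lower in ΔIRIS cells at rest and 10 after LPS. With a minimum of 200, which kept 7 members, 4 were lower on LPS in ΔleftPAL, 5 were lower on LPS in ΔIRIS cells, 4 were higher in resting and 1 was lower in LPS-activated ΔIRIS cells. Without a filter, 3 of 35 members with a ratio were higher and 23 lower on LPS in ΔleftPAL cells. In ΔIRIS cells 2 of 33 were higher and 28 lower. Against ΔleftPAL cells, 11 of 33 were higher and 4 lower in resting ΔIRIS cells, and 14 of 23 were lower after LPS. With 0.5 CPM added, 3 were lower in LPS-activated ΔIRIS cells. With 5 CPM added, 5 were lower on LPS in ΔleftPAL and 10 in ΔIRIS cells, where 0 were higher, Ccl22 being lost. Between the genotypes, 3 were higher in resting and 1 lower in LPS-activated ΔIRIS cells. The shares over all genes were not computed for these alternatives, so nothing is read from the counts about the members. The filters change the genes tested and the added CPM damps low genes; for the kallisto tables the cause was not tested. An additive fit of genotype and LPS, which pairs the libraries of each genotype, was not run. No library can be left out, because each group has 1 library. Depth limits the ratios between low counts, as for Ccr2 and Xcr1 between the LPS libraries, whose intervals held equality.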
